A study of Arabidopsis thaliana with 4 samples.

Results

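Transcript levels of 6 SAUR genes of Arabidopsis thaliana were followed in the lower and upper flanks of inflorescence stems laid on their side: SAUR32 (AT2G46690), SAUR36 (AT2G45210), SAUR41 (AT1G16510), SAUR72 (AT3G12830), SAUR76 (AT5G20820) and SAUR8 (AT2G16580). They are 6 of 18250 genes tested, and stand beside 54 other tested genes that RefSeq names SAUR. The 6 were chosen by their ratio of lower to upper flank, which had not risen as it had for SAUR genes of the auxin-responding clusters, and all 6 passed the filter on dim probes. Flank ratios are therefore given as a description with no test, and the level over both flanks, which the choice did not use, was tested between the times.

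All plants were ecotype Col, came from seeds kept at 4 °C for 3 days, were grown on plates under light without a dark period at 23 °C for 10 days and then on soil, and were gravistimulated in the same way: stems of 4 to 8 cm were placed horizontally in dim light that came from no one side. The groups were lower and upper flanks after 30 min and lower and upper flanks after 10 min. After the top 5 mm was removed, the next 3 cm was cut by hand along its length, so each flank holds all tissues of a stem side, and no stem left upright was part of the series. Each of 4 two-colour arrays held both flanks of 1 time, with 2 arrays per time: Cy5 marked the lower flank on replicate 1 and the upper flank on replicate 2.

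SAUR genes (small auxin up RNA) encode short plant proteins. Those of the fast auxin-responding clusters are known to bind and inhibit PP2C.D phosphatases, which otherwise switch off the AHA proton pumps of the plasma membrane, so that the wall is acidified and the cell expands. Many other SAUR genes are not induced by auxin and respond to abscisic acid, ethylene, light or ageing. In a stem laid on its side auxin gathers in the lower flank, which then grows more than the upper and bends the stem upward.

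The genes lie mostly apart from other SAUR genes in the genome. In the gene order of RefSeq, SAUR32 and SAUR36 are each other's nearest SAUR genes on chromosome 2, with 155 protein-coding genes between them. SAUR8, on the same chromosome, has 151 between it and SAUR10. SAUR41 on chromosome 1 is 87 genes from SAUR77, and SAUR72 on chromosome 3 is 15 genes from SAUR74. SAUR76 on chromosome 5 is the exception, since SAUR70 is the gene next to it. Thus 5 of the 6 had no SAUR gene among the 10 nearest genes on either side, whereas SAUR19 had 5 and SAUR63 had 7. SAUR70, SAUR74 and SAUR77 had no probe of their own and were not analysed here.

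Each gene was read by 1 probe, which named no other locus. In the coordinates of the scanner files, for which the sources used here give no genome build, the probes lie on chromosome 2 at 19188269 to 19188328 (SAUR32), 18649295 to 18649354 (SAUR36) and 7193766 to 7193825 (SAUR8), on chromosome 1 at 5644778 to 5644837 (SAUR41), on chromosome 3 at 4079144 to 4079203 (SAUR72) and on chromosome 5 at 7046753 to 7046788 (SAUR76). These coordinates span 36 bases for SAUR76 and 60 for each of the others, and a span need not be the length of the probe. Whether the probes fall in coding sequence or a UTR was not analysed here. All 6 were well above background in both flanks on all 4 arrays, and none was saturated or marked as an outlier spot. Before any correction their spots read between 115.8 and 735.2 units of brightness, against a local background of 48 to 65.

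Arrays differed in overall brightness. Before scaling, the median of the average log2 signal over the tested genes was 7.77 and 8.34 on replicates 1 and 2 at 30 min, against 8.30 and 7.58 at 10 min. The labelled tissue was checked by its markers: all 4 xylem and fibre markers on the array, 5 epidermis, 3 phloem and 3 photosynthetic markers were well above background in all 8 signals. Of the flower markers AGAMOUS (AG) was above background in none of the 8 signals, PI in 4, AP3 in 7 and SEP3 in all 8. Of the root markers PYK10 was above background in 1 of 8 signals, while EXPA7 and COBL9 were in all 8. The labels name the 2 arrays of a time biological replicates, but by the labelling protocol every cRNA was labelled with both dyes, so the p-values below may rest on technical spread alone.

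SAUR36 was the gene that moved most. It is also called SAG201, a senescence-associated gene that promotes leaf senescence when overexpressed. Its normalized log2 signal in the lower flank was 7.09 and 7.05 at 30 min, against 8.14 and 8.05 at 10 min. In the upper flank it was 7.12 and 7.26 at 30 min, against 8.09 and 8.07 at 10 min. All 4 signals at 30 min were thus below all 4 at 10 min, by more than any gap between arrays of a time.

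Over both flanks the SAUR36 level averaged 7.13 at 30 min and 8.09 at 10 min on the log2 scale. The difference was -0.96 ± 0.08 (SE, n = 2 arrays per time; adjusted p = 0.00507, limma), so the level at 10 min was 1.94-fold that at 30 min. Taken alone, the lower flank differed by -1.03 and the upper flank by -0.89, values given as a description because each holds part of the flank ratio. Of all genes tested, 0.523% had a difference as low or lower. The call was made under all 10 alternatives run, with a difference between -1.32 and -0.93. In bulk tissue, fewer cells of a type and less RNA per cell cannot be told apart.

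**Figure D1:**
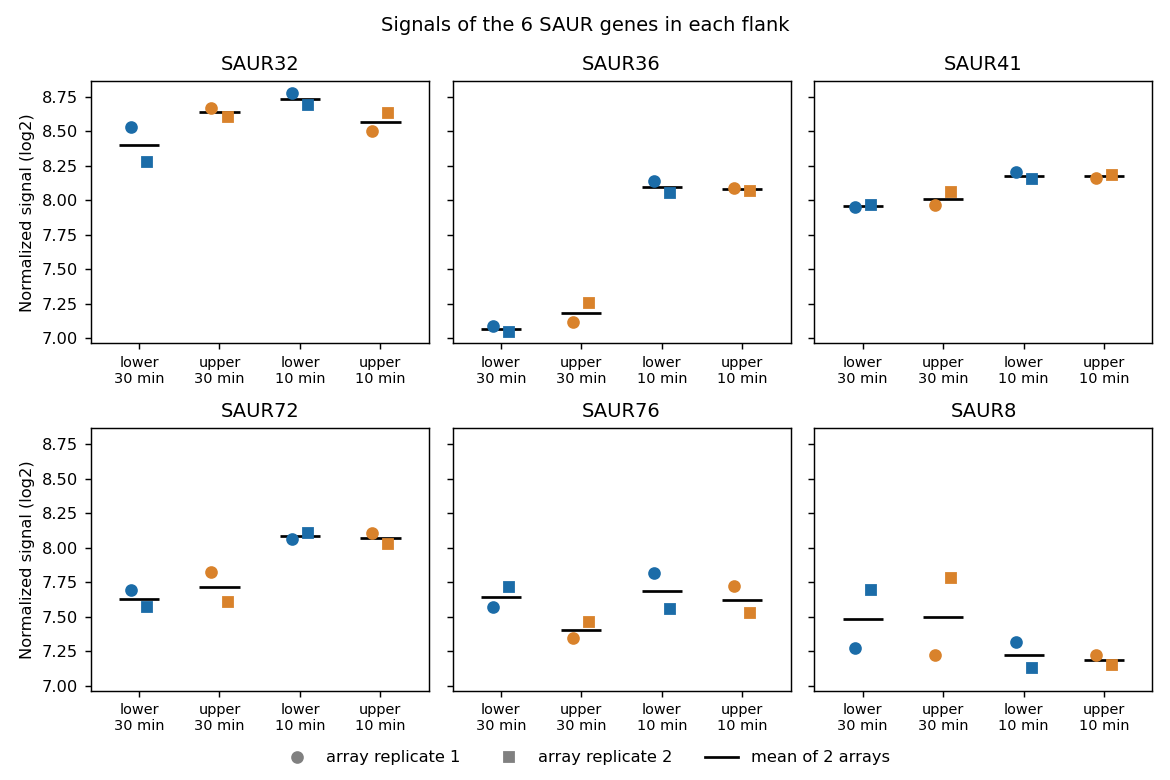
Normalized log2 signal of each gene (vertical axis) in the lower and upper flanks at 30 and 10 min (horizontal axis), with a circle for array replicate 1, a square for replicate 2 and a line for their mean. SAUR36 sits near 7.1 in both flanks at 30 min and near 8.1 at 10 min, and on SAUR8 replicate 2 at 30 min stands above the other arrays.

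Among the 6 genes limma called SAUR36 alone at an adjusted p under 0.05, and 3 (SAUR36, SAUR72 and SAUR41) had an unadjusted p under 0.05, as did 25.1% of all genes. Over all genes the test called 4.41% in either direction, 2.7% as lower and 1.71% as higher at 30 min. The median difference of the 6 was -0.16, against 0.04 over all genes tested, and 5 of the 6 were below 0, as were 41.6% of all genes. Leaving out one array changed these counts: without 30 min replicate 1 SAUR36 and SAUR72 were called, and without 30 min replicate 2 SAUR41 was called as well. Over all genes the number called, 801, became 446 without 10 min replicate 1 and 5485 without 30 min replicate 2. The balance of directions changed too: 311 genes were called higher and 490 lower at 30 min, against 3835 higher and 1650 lower without 30 min replicate 2.

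SAUR72 and SAUR41 belong to one subfamily, with SAUR40 and SAUR71, and SAUR41 promotes cell expansion when overexpressed. The SAUR72 signal in the lower flank was 7.69 and 7.57 at 30 min, against 8.06 and 8.11 at 10 min, and in the upper flank it was 7.82 and 7.60 at 30 min, against 8.10 and 8.03 at 10 min. Its signals at 30 min also lay below all those at 10 min. The difference in level, -0.40 ± 0.09 (SE), did not pass the test (adjusted p = 0.0648, limma), and it passed under 4 of 10 alternatives.

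SAUR41 had lower-flank signals of 7.95 and 7.97 at 30 min, against 8.21 and 8.15 at 10 min. Its upper-flank signals were 7.97 and 8.06 at 30 min, against 8.16 and 8.19 at 10 min. The groups of the 2 times did not overlap in either flank, but the difference was small, at -0.19 ± 0.07 (SE), and did not pass (adjusted p = 0.185, limma). Both other members of the subfamily, named here after their values were seen, were tested too: SAUR71 had a difference in level of -0.16 ± 0.08 and SAUR40 of 0.03 ± 0.13 (SE), and neither passed.

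SAUR32, studied for its part in the apical hook of dark-grown seedlings, had a level that differed little between the times. Its signals in the lower flank were 8.53 and 8.28 at 30 min, against 8.78 and 8.69 at 10 min. In the upper flank they were 8.67 and 8.60 at 30 min, against 8.50 and 8.63 at 10 min. The 2 times did not overlap in the lower flank and overlapped in the upper flank. The level over both flanks differed by -0.13 ± 0.09 (SE; adjusted p = 0.389, limma).

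SAUR76 belongs with SAUR77 and SAUR78, which have been linked to ethylene receptors. Its lower-flank signals were 7.57 and 7.72 at 30 min, against 7.81 and 7.55 at 10 min. Its upper-flank signals were 7.34 and 7.46 at 30 min, against 7.72 and 7.52 at 10 min. The times overlapped in the lower flank and not in the upper. The difference in level was -0.13 ± 0.11 (SE; adjusted p = 0.467, limma), and it was -0.02 without 10 min replicate 1 and -0.24 without 10 min replicate 2. SAUR78, named after its values were seen, had -0.29 ± 0.10 and did not pass (adjusted p = 0.156, limma).

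SAUR8 was the only one of the 6 whose level was higher at 30 than at 10 min, and 1 array carried that value. Its lower-flank signals were 7.28 and 7.69 at 30 min, against 7.32 and 7.13 at 10 min, and its upper-flank signals were 7.22 and 7.78 at 30 min, against 7.22 and 7.15 at 10 min. Replicate 2 at 30 min stood above the other 3 arrays in both flanks. The difference was 0.29 ± 0.16 (SE; adjusted p = 0.320, limma); it was 0.05 without 30 min replicate 2 and 0.53 without 30 min replicate 1. The 2 arrays at 30 min differed by 0.48 in the SAUR8 level, the widest gap between replicates among the 6 genes.

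For 4 of the 6 genes (SAUR36, SAUR72, SAUR41 and SAUR32) the level on both arrays at 30 min lay below that on both at 10 min. Of the 54 other SAUR genes 27 did so, and of all genes with values on all arrays 24.2%.

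**Figure D2:**
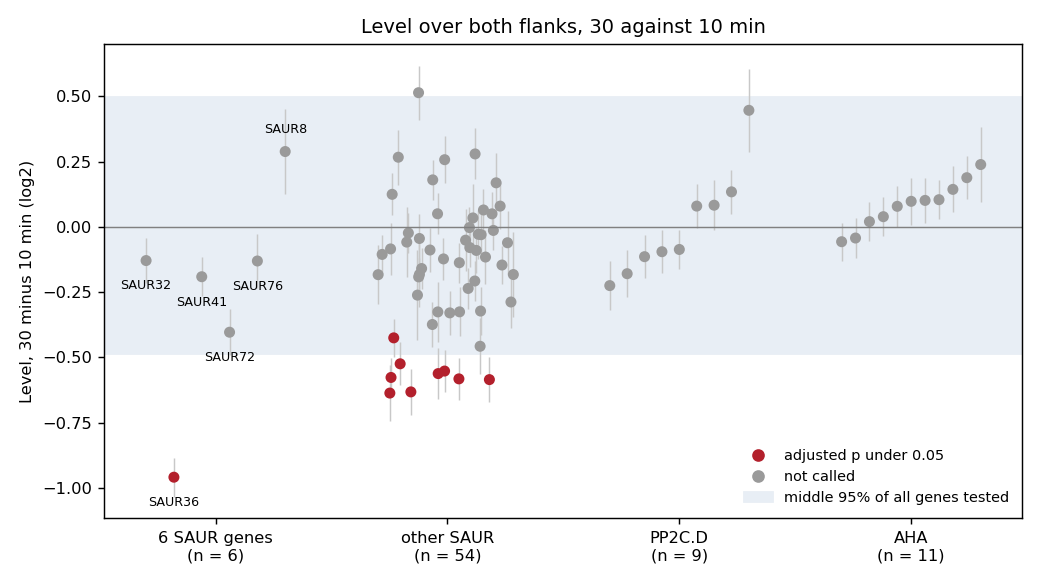
Difference in level over both flanks, 30 minus 10 min, on the log2 scale (vertical axis) for the 6 genes, the other SAUR genes, the PP2C.D phosphatases and the AHA pumps (horizontal axis). Points are red for an adjusted p under 0.05 (limma) and grey otherwise. Bars are the SE of the limma fit, and a pale band marks the central range of all genes tested. SAUR36 lies at -0.96, below every other gene drawn.

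Of the 54 other SAUR genes, 9 were called in the same comparison, all 9 lower at 30 min (2.7% of all genes were), 45 were not called, and the median difference was -0.12. Differences were below 0 in 42 of the 54 (41.6% of all genes). AT1G29490, named after its value was seen, was higher at 30 min by 0.51 ± 0.10 (SE). It did not pass (adjusted p = 0.0562, limma), but was called with the replicate block (adjusted p = 0.00367, limma). The 6 with the largest differences were SAUR65 (-0.64 ± 0.11, SE), SAUR63 (-0.63 ± 0.09), SAUR16 (-0.59 ± 0.09), SAUR68 (-0.58 ± 0.08), SAUR50 (-0.58 ± 0.08) and SAUR64 (-0.56 ± 0.10). With the deposited processed signals 3 other SAUR genes were called, and 551 of 18167 genes over all. The number called fell without 10 min replicate 1 and rose without 30 min replicate 2, as did the number over all genes. In SAUR63 the lower flank differed by -0.16 and the upper by -1.10 between the times, and in SAUR65 by -0.25 and -1.03. SAUR59, also called and named after its values were seen, had -0.51 and -0.34. How alike the 2 flanks moved is fixed in part for the 6 genes by the way they were chosen, so nothing is read from it. SAUR genes of 1 cluster are near copies of each other and their probes may cross-hybridize, so these 9 are not independent.

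**Figure D3:**
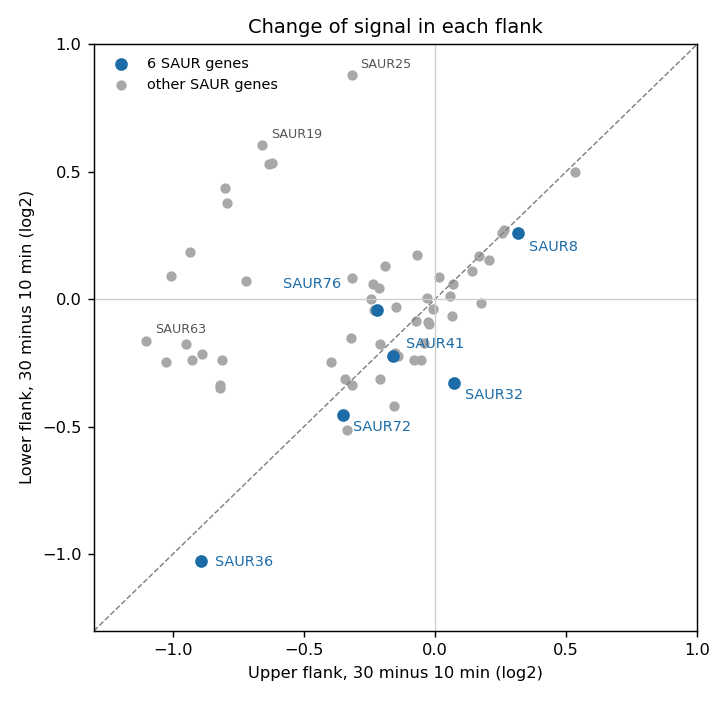
Difference in normalized log2 signal, 30 minus 10 min, in the upper flank (horizontal axis) and the lower flank (vertical axis), with blue for the 6 genes, grey for the other SAUR genes and a dashed line where both flanks change alike. SAUR36, SAUR72, SAUR41 and SAUR8 lie near the line, SAUR32 below it and SAUR76 above it, while SAUR63, SAUR19 and SAUR25 lie far above it.

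The partners of SAUR proteins gave no calls for the level over both flanks, where 4.41% of all genes were called. Lists this short could hold none at that share. None of the 9 PP2C.D genes was called by limma, with 1 at an unadjusted p under 0.05 (25.1% of all genes), PP2C.D5 (0.45 ± 0.16, SE, higher at 30 min; adjusted p = 0.162), named after its value was seen. Their differences had a median of -0.09. The flank ratio of PP2C.D1, also named after its value was seen, averaged 1.16 at 30 min, against -0.04 at 10 min, while its level over both flanks differed by 0.08. None of the 11 AHA genes was called, with 0 at an unadjusted p under 0.05 (25.1% of all genes), and their median difference was 0.10. Some AHA genes were dim, such as AHA7, with a level of 6.01 at 30 min and 5.99 at 10 min. Without 30 min replicate 2 the counts of PP2C.D and AHA genes called both rose, as did the count over all genes.

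Tissue markers were read beside these levels. None of the 19 tested markers of stem and other tissues was called by limma, against 4.41% of all genes. At an unadjusted p under 0.05 there were 3 of the 19 (25.1% of all genes). The replicate block called 2 of the 19, and 1786 of 18167 genes over all. The summed signal of the 3 photosynthetic markers was 73800 to 79000 at 30 min and 97000 to 98300 at 10 min, with LHCB1.1, a light-harvesting protein gene, at -0.50 (adjusted p = 0.0553, limma). That of the 3 phloem markers was 1850 to 1870 at 30 min and 1930 to 1960 at 10 min. That of the 4 xylem and fibre markers was 2700 to 2920 at 30 min and 2500 to 2590 at 10 min, and 4 of 5 epidermis markers, those with values on all arrays, summed to 4200 to 5730 and 5060 to 5260. The 4 flower markers summed to 277 to 278 at 30 min and 258 to 268 at 10 min, and the 3 root markers to 271 to 364 and 249 to 264. Both of these sums include genes near background, such as AG (well above it in 0 of 8 signals) and PYK10 (1 of 8). The part of tissue make-up and of array brightness in the differences in level was not tested.

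The flank ratios, by which the genes had been chosen, are now described array by array as log2 of lower over upper flank, with replicate 1 first. At 30 min SAUR32 had -0.14 and -0.33, SAUR36 -0.03 and -0.21, SAUR41 -0.02 and -0.09, and SAUR72 -0.13 and -0.03, so these 4 were higher in the upper flank on both arrays. With ratios centred on each array's median in place of loess, SAUR41 was at 0.03 on replicate 1 and no longer among them. SAUR8 had 0.05 and -0.08 and was on both sides. SAUR76 had 0.22 and 0.26, higher in the lower flank on both. Of all genes 24.2% were below 0 and 25.2% above 0 on both arrays of that time. Of the 19 tested tissue markers 13 were below 0 and 0 above 0 on both, with a median ratio of -0.11. The part of tissue make-up in the flank ratios was not tested.

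At 10 min SAUR32 had 0.27 and 0.06, and SAUR76 had 0.10 and 0.03, so on each array both were higher in the lower flank. The other four were on both sides of 0: SAUR36 had 0.05 and -0.02, SAUR41 0.05 and -0.03, SAUR72 -0.04 and 0.08, and SAUR8 0.10 and -0.02. None of the 6 was below 0 on both arrays. With median centring SAUR72 and SAUR8 were above 0 on both, and SAUR32 was at -0.05 on replicate 2. Of all genes 22.4% were above 0 and 20.7% below 0 on both arrays at 10 min. Of the 19 tested tissue markers 8 were above 0 and 1 below 0 on both.

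**Figure D4:**
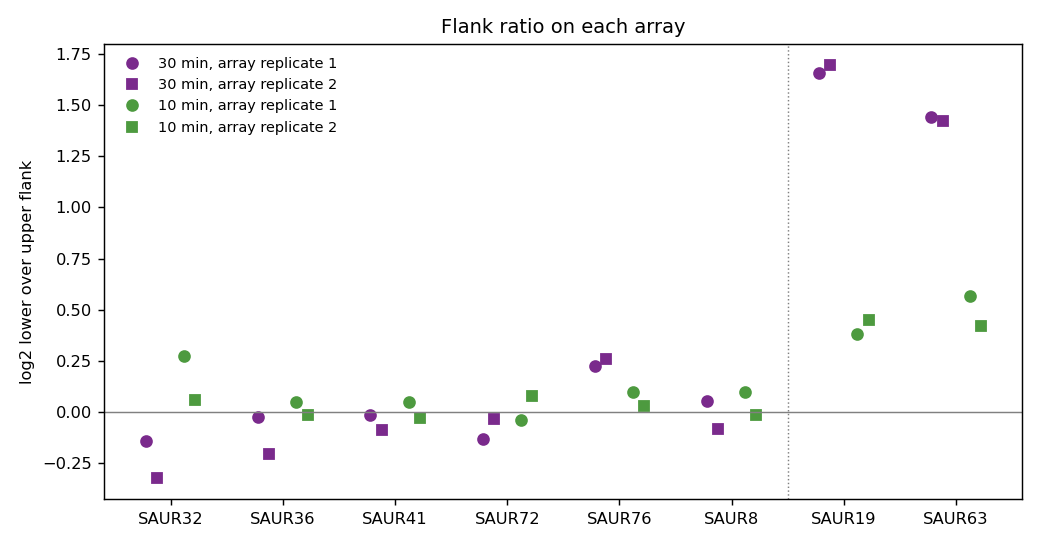
Log2 ratio of lower over upper flank (vertical axis) of the 6 genes and of SAUR19 and SAUR63 from the clusters, with purple for 30 min, green for 10 min, circles for array replicate 1 and squares for replicate 2. The 6 genes lie between -0.33 and 0.27, SAUR19 and SAUR63 between 1.42 and 1.70 at 30 min and between 0.38 and 0.57 at 10 min.

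The 6 were chosen for the lack of a rise in the lower flank. The share of all genes above 0 on all 4 arrays was not counted. Of the 6, only SAUR76 was. Its mean ratio at 30 min was 0.24 ± 0.04 (SE, n = 2 arrays), a 1.18-fold higher signal in the lower flank, and 0.858% of genes had a ratio as high or higher. At 10 min it was 0.06 ± 0.04, with 11.2% of genes as high. The 2 arrays of 30 min differed by -0.03, so the dye swap left this ratio nearly as it was.

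SAUR32 went to both ends of the genes. Its mean ratio was -0.23 ± 0.07 (SE) at 30 min, with 1.42% of genes as low or lower, and 0.17 ± 0.07 at 10 min, with 1.09% as high or higher. Replicate 1 was above replicate 2 by 0.18 at 30 min and by 0.22 at 10 min. Over all genes this difference between the 2 arrays, which holds the dye, had an SD of 0.124 at 30 min and 0.126 at 10 min.

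The other 4 had mean ratios between -0.12 (SAUR36) and -0.02 (SAUR8) at 30 min, and between 0.01 (SAUR41) and 0.04 (SAUR8) at 10 min. Over all genes the SD of the mean ratio was 0.0993 at 30 min and 0.0601 at 10 min. The median of the 6 was -0.07 at 30 min and 0.03 at 10 min. For the 54 other SAUR genes it was 0.15 at 30 min and 0.08 at 10 min, and over all genes -0.000622 and 0.00273.

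A flank difference of 1.5-fold or more on each array of a time was found for none of the 6, in either direction. At 30 min 15 of the 54 other SAUR genes reached it, all higher in the lower flank. Over all genes the shares were 0.202% for the lower and 0.0169% for the upper flank. At 10 min the share was 0% in each direction. In SAUR19 the ratios were 1.66 and 1.70 at 30 min, against 0.38 and 0.45 at 10 min. SAUR78, the relative of SAUR76, had 0.00229 and 0.01 at 30 min, against 0.28 and 0.26 at 10 min. Since the ratios chose the 6 genes, nothing is read from these counts.

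In order of mean signal over the 2 arrays, the 4 conditions ranked as follows within each gene. For SAUR36 the order from high to low was lower flank at 10 min (8.10), upper at 10 min (8.08), upper at 30 min (7.19) and lower at 30 min (7.07), and the flanks overlapped at 10 min but not at 30 min. SAUR72 ran 8.08, 8.07, 7.71 and 7.63 in the same order of conditions, and SAUR41 8.18, 8.17, 8.01 and 7.96. In both, the flanks of 1 time were neighbours that did not separate beyond the spread of the arrays.

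SAUR32 ran from the lower flank at 10 min (8.73) over the upper at 30 min (8.64) and the upper at 10 min (8.57) to the lower at 30 min (8.40). SAUR76 ran from the lower flank at 10 min (7.68) over the lower at 30 min (7.64) and the upper at 10 min (7.62) to the upper at 30 min (7.40), and the signals of the first 3 overlapped. SAUR8 ran from the upper flank at 30 min (7.50) over the lower at 30 min (7.48) and the lower at 10 min (7.22) to the upper at 10 min (7.18), with all neighbours overlapping.

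Genes with the most similar course over the 8 signals were found by Pearson's r among genes whose SD over those signals was within 1.5-fold. The 8 signals come from 4 arrays and share array and time, so r is a description. A gene picked this way must vary over times and flanks much as the member does, so its flank ratios are no separate result. Nearest to SAUR36, among 574 candidates, were ATL8 (AT1G76410), a RING finger protein gene, and PRR7 (AT5G02810), a pseudo-response regulator of the circadian clock, each with r = 0.997. Their levels differed by -0.97 ± 0.07 and -0.82 ± 0.08 (SE) between 30 and 10 min. Nearest to SAUR72 were CDF2 (AT5G39660), a Dof transcription factor gene, with r = 0.996, and AT5G28050, annotated as a deaminase, with r = 0.995. Their levels differed by -0.51 ± 0.09 and -0.42 ± 0.10 (SE).

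For SAUR41 the nearest were AT-HSFA5 (AT4G13980, r = 0.992), a heat shock factor gene, and AT4G13160 (r = 0.991). For SAUR32 they were AT2G35760, annotated as a membrane protein (r = 0.992), and AT1G29720, a kinase (r = 0.991), with flank ratios of -0.25 and -0.21 at 30 min, against 0.16 and 0.17 at 10 min. For SAUR76 they were GA2OX2 (AT1G30040, r = 0.954), which inactivates gibberellins, and AT1G63840, a RING finger gene (r = 0.946), with flank ratios of 0.27 and 0.34 at 30 min. For SAUR8 they were mtLPD2 (AT3G17240, r = 0.999), of the mitochondrial dihydrolipoamide dehydrogenases, and AT1G59860 (r = 0.995), a small heat shock protein gene.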

How the data were processed

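Total RNA (500 ng) was amplified, labelled with Cy3 or Cy5 and hybridized to 2-colour Agilent arrays. Per the file headers, Agilent Feature Extraction 8.1.1.1 gave the deposited intensity values: mean spot brightness and median local background with nothing subtracted, and processed signals that were background-subtracted, spatially detrended and dye-normalized. The deposited log10 ratio is Cy5 over Cy3. The authors' series table matched log10 of lower over upper flank. Deposited flags (other values of 0 or 1) mark well-measured, saturated and outlier spots.

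From the mean intensity, normexp (offset 50) and loess within arrays were run with limma 3.58.1 under R 4.3.3. Control spots (1075 of 22575) had weight 0 in loess and were then left out with outlier spots. Average log2 signals were scaled between arrays (Aquantile). A gene was its brightest one-locus probe (20269 of 21500 gene probes), tested if, in some combination of flank and time, both arrays had it well above background. RefSeq (TAIR10.1) held 20137 of 20219 loci and gave names and gene order. It gives the names SAUR21 and SAUR68 to 2 loci each. The average signal of 30 against 10 min was tested with lmFit and eBayes over 4 arrays, with time the only term, and Benjamini-Hochberg adjustment over the 18167 genes with values at both times; ± values are standard errors. In simulated data the fit called 6 of 50 genes changed by 0.5 on the log2 scale, 33 of 50 changed by 1 and 47 of 50 changed by 2. It made 5 false calls. A gene that did not pass may therefore still differ. With the replicate block the fit called 0 of 50 changed by 1 and 36 of 50 changed by 2 in simulated data. On the 4 arrays, however, the replicate block called SAUR72 at a difference of only -0.40 (SE 0.136; adjusted p = 0.0357, limma). The simulated counts thus do not carry over to the block fit on the arrays, whose power was not tested. The precision is limited by 2 arrays per time. Each array lay on its own slide, and no fit with slide as a block was possible. Members, lists and tests were chosen with earlier results of these data known. The 6 genes, SAUR19 and SAUR63 were named by rule, with up to 6 called genes of each other list per direction and the 2 nearest genes of each member. Alternatives changed background, scaling, filter, block and arrays. Promoters and proteins were not analysed here.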

Additional observations from a re-analysis of the deposited data

Results flagged for a closer look

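The flank ratio of SAUR32 was below 0 on both arrays at 30 min (-0.14 and -0.33) and above 0 on both at 10 min (0.27 and 0.06). The mean ratio at 30 min minus that at 10 min was -0.40. This difference was not tested, since the flank ratio had chosen the gene. Of 17754 genes with ratios on all arrays, 3406 (19.2%) were on opposite sides of 0 at the 2 times in the same strict sense. With ratios centred on each array's median in place of loess, 10 min replicate 2 was at -0.05, so the opposite signs no longer held on every array.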

How the results depend on the processing

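SAUR36 kept its call and direction under all 10 alternatives. The other 5 genes kept their direction in all of them. SAUR72 passed in 4 and SAUR41 in 1. In some alternatives limma gave all 6 genes the same SE. It was 0.136 with the replicate block, 0.168 with median centring between arrays and 0.180 without either 10 min array. Adjusted p-values from those fits rest on a spread shared by genes and do not measure each gene's own spread. The replicate number is also the dye orientation and no label makes it a shared batch; replicate differences in level at the 2 times correlated over genes at -0.293, so the numbers were not taken to pair arrays. With the replicate block, limma called 1786 genes over all (1067 higher and 719 lower at 30 min), 2 of the 6 (SAUR36 and SAUR72, adjusted p = 0.0357) and 1 PP2C.D gene (PP2C.D5, adjusted p = 0.0162). With the crossed pairing as a block, added after seeing the data, it called 2382, 2 and 1. Without the filter on dim probes 504 genes were called. With the deposited processed signals 551 genes over all and 3 other SAUR genes were called. Leaving out each array in turn, which leaves 1 array of a time assumed to vary like the others, gave 446 to 5485 calls over all genes (3835 higher and 1650 lower at 30 min at 5485), 1 to 3 of the 6, 2 to 17 other SAUR genes, 0 to 2 PP2C.D and 0 to 1 AHA genes.

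Genes at least 1.5-fold apart by flank on both arrays at 30 min numbered 39, against 83 with the processed signals and with the series table, and 20 at 2-fold. At 10 min they numbered 0, against 1 with a normexp offset of 16 and 4 with the processed signals and the series table. None of the 6 was among them in any setting. Each flank ratio is a pair within 1 array, so the replicate block bears on the levels alone. Of 48 flank values of the 6 genes under alternatives, 3 moved beyond the array spread, all of SAUR76 at 30 min (up to 0.33). Signs on single arrays near 0 changed in SAUR32, SAUR41, SAUR72 and SAUR8 with median centring within arrays, and in SAUR36 at 10 min with the processed signals and the series table (replicate 2 at 0.01). A normexp offset of 50 draws dim signals together: the SAUR36 difference was -1.17 with an offset of 16 and -1.32 with the processed signals.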
